A study of Mus musculus with 12 samples.

Results

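The axon guidance ligands and receptors were followed in RNA-seq libraries of Ocy454 cells, a mouse osteocyte line from long bone. They were taken as the protein-coding genes whose symbols in the mm9 annotation begin with those of the semaphorins of vertebrate classes, plexins, neuropilins, Slits, Robos, ephrins, Eph receptors, netrins and Unc5 receptors. This rule gave 70 of the 37583 gene IDs counted, under 69 symbols, of which 36 IDs encode ligands and 34 receptors. It used names alone and no measured value, although it was chosen with earlier results of these data known. Control cells (labelled as original cells) and DKO cells (labelled as carrying a deletion of HDAC4 and HDAC5) were kept static or put under fluid flow shear stress (FFSS), and each of the 4 groups had 3 libraries. Both enzymes are histone deacetylases of class IIa, which hold back transcription when they are in the nucleus. All libraries carry a time point of 3 h, and the cells had been kept at 37 °C for 14 days beforehand. Per the study's methods a subclone grown from a single Ocy454 cell was used, the line carries a temperature-sensitive T antigen that is inactive at this temperature, and FFSS was given by orbital rotation of the cultures. The labels name no clone for either genotype, so the deletion and anything else that sets the DKO cells apart from the control cells cannot be told apart. Nothing says that the libraries of a group came from separate cultures, so the p-values measure the spread between these libraries, which may be technical.

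Guidance proteins were first known for steering growing axons, and the same proteins act in bone, vessels and many other tissues. Semaphorins bind plexins, with neuropilins as co-receptors for most of the secreted class 3 members. Slits bind Robos, netrins bind Unc5 receptors and Dcc, and ephrins bind Eph receptor tyrosine kinases on neighbouring cells, where the ephrin itself can also pass a signal into its own cell. In bone, several of these proteins are known to act between osteoblasts, osteocytes and osteoclasts, Sema3a and Sema4d among them. Osteocytes carry long dendritic processes through the bone matrix.

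The libraries held between 17.6 and 19.2 M reads assigned to genes, so that 3 counts corresponded to between 0.146 and 0.178 CPM (counts divided by the TMM-scaled library total in M reads). The control FFSS libraries differed among themselves. Reads outside annotated genes here means those that the counting program HTSeq gave to no feature, which can include reads from introns. Their share is that among reads assigned, ambiguous or without a feature, so reads aligned to several places are left out. Control FFSS replicate 1 had a share of 5.87%, close to the 5.10% to 5.21% of control static libraries, whereas replicates 2 and 3 had 9.19% and 10.04%. The DKO libraries lay between these values, with 7.07% to 7.14% in static cells and 7.93% to 8.55% under FFSS. The targeted genes were reduced rather than lost in DKO static cells, with log2 fold changes of −0.85 (SE 0.14, edgeR adjusted p = 0.000102) for the longer of the Hdac4 IDs, −0.39 (SE 0.14, edgeR adjusted p = 0.0281) for the shorter and −0.65 (SE 0.08, edgeR adjusted p = 7.94e-06) for Hdac5. Under FFSS they were −1.48 (SE 0.13, edgeR adjusted p = 5.65e-07) for the longer Hdac4 ID, −0.50 (SE 0.14, edgeR adjusted p = 0.00638) for the shorter and 0.19 (SE 0.08, edgeR adjusted p = 0.0512) for Hdac5. Counts over whole genes do not show whether the deleted stretch was read, so they check the labels only in part. Of the osteocyte markers, 5 of 8 exceeded 1 CPM in control static cells. The list summed to between 211 and 266 CPM there, against between 3937 and 4018 CPM in DKO static cells. Irx5 was the largest part of the control static sum, at a mean of 142 CPM. Sost was the largest part of the DKO static sum, at a mean of 2063 CPM against 5.35 CPM in control static cells. Mepe and Dkk1 had means of 0.123 and 0.929 CPM in control static cells, and Fgf23 was at or near 0 in every library. Pdpn, an early osteocyte marker, went the other way, at 27.6 to 29.3 CPM in control static and at most 5.28 CPM in DKO static libraries. Among the osteoblast markers, 8 of 8 symbols exceeded 1 CPM in every group, and they summed to between 31340 and 37718 CPM in control static, 11557 and 32556 CPM in control FFSS and 100536 and 111560 CPM in DKO static libraries. Col1a1 and Col1a2 made up most of these sums. Runx2 had means of 197 and 238 CPM and Alpl of 1633 and 1821 CPM in control static and DKO static cells. The chondrocyte markers summed to between 94.3 and 122 CPM in control static cells and between 2409 and 3007 CPM in DKO static cells. Most of the DKO sum was Col2a1 and Col10a1, whereas Acan had means of 5.96 CPM in control static and 4.97 CPM in DKO static cells. Of the neuron and glia markers only Tubb3, a tubulin, exceeded 1 CPM, at 103 to 120 CPM in control static and 8.12 to 10.3 CPM in DKO static libraries. The endothelial markers were at most 1.03 CPM in sum in any library, with 0 of 6 above 1 CPM in a group, and at most 1 of 4 adipocyte markers exceeded it. Of the macrophage and osteoclast markers 2 of 7 did, and the list summed to between 99.9 and 105 CPM in control static and between 57.8 and 60.7 CPM in DKO static libraries. Of this list, Cd68 was at 23.6 to 28.2 CPM in control static and 2.17 to 2.58 CPM in DKO static libraries, while Ptprc was at or near 0 in every library. The part of these marker shifts in the guidance gene results was not tested.

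To see which guidance genes the cells carried at all, levels were compared between genes as RPKM, the CPM divided by the exon length in kilobases. Of the 70 IDs, 47 had a group mean above 1 RPKM in at least 1 group, and 10 had a mean above 10 RPKM in all 4 groups. Over the 12 libraries Nrp2, a neuropilin, had the highest mean (72.7 RPKM), close to that of Plxnb2 (71.5). Nrp2 was at 86.9 ± 4.78 RPKM in static and 60.2 ± 13.5 RPKM in FFSS control cells, and at 72.1 ± 6.24 RPKM in static and 71.4 ± 6.26 RPKM in FFSS DKO cells (SD, n = 3 each, as for all RPKM values). Plxnb2, a receptor of class 4 semaphorins, had 83.3 ± 1.06 RPKM in control static, 61.1 ± 10.9 RPKM in control FFSS, 76.6 ± 1.73 RPKM in DKO static and 64.8 ± 1.18 RPKM in DKO FFSS cells. It stood above Nrp2 in control FFSS and DKO static cells, and the libraries of the pair overlapped in every group. Unc5b, a netrin receptor, had 71.3 ± 1.37 RPKM in control static and 44.9 ± 2.37 RPKM in DKO static cells.

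Among the ligands, Efnb1, a transmembrane ephrin, was the most abundant on the RPKM scale, at 54.0 ± 2.44 in control static and 59.0 ± 1.22 in DKO static cells. Slit3, a secreted Robo ligand, had 11.4 ± 0.821 RPKM in control static and 39.6 ± 0.364 RPKM in DKO static cells. The other families were led in mean RPKM over the 12 libraries by Sema3b (14.0), Sema4b (6.27), Sema5a (12.3), Sema6c (1.77), Sema7a (13.8), Efna1 (12.9) and Ntn1 (15.4) among ligands. Among receptors they were led by Plxna1 (25.7), Plxnc1 (0.397), Plxnd1 (25.0), Robo2 (5.07), Epha2 (25.0) and Ephb4 (18.8). This order is that of the mean over all libraries, and the leader differed by group in some families. In control static cells Efna2 (7.80 ± 0.658 RPKM) was above Efna1 (7.01 ± 0.152), Epha3 (31.4 ± 2.00) above Epha2 (24.9 ± 1.02), and Sema3f (16.6 ± 0.713) beside Sema3b (16.4 ± 0.531), within their spread. In control FFSS cells Sema3f (14.4 ± 1.29) was above Sema3b (9.92 ± 3.30), and Slit2 (5.48 ± 0.871) beside Slit3 (5.36 ± 3.47). In DKO static cells Efna3 (18.5 ± 0.806) was above Efna1 (16.7 ± 0.739). A receptor of every family was detected, although the only plexin of class C stayed below 1 RPKM.

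**Figure D1:**
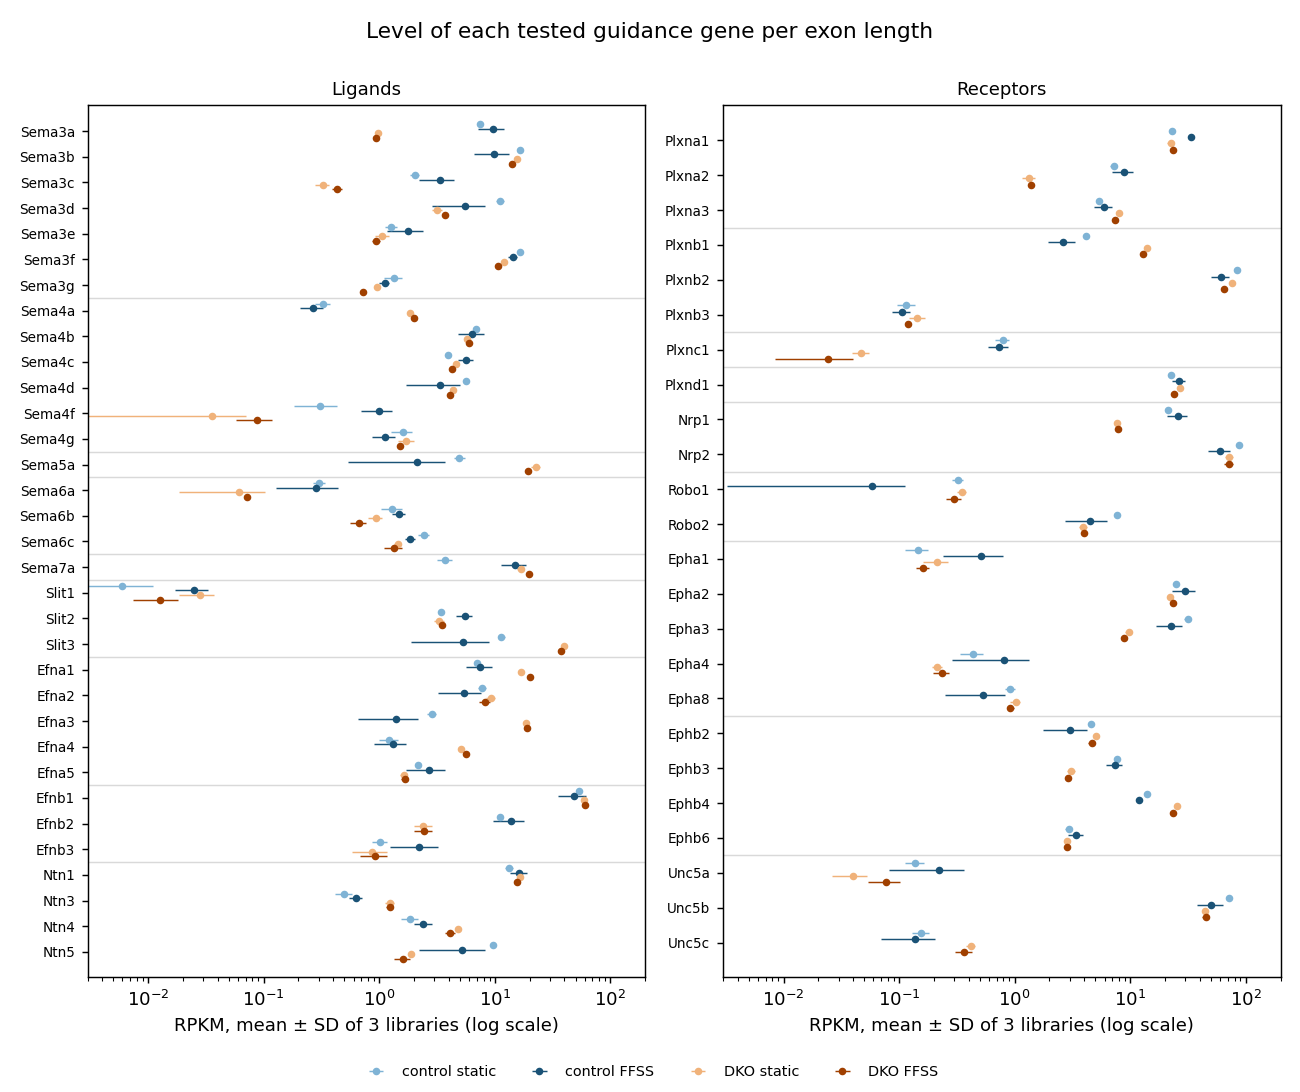
RPKM (log scale) of each tested guidance gene in the 4 groups, ligands on the left and receptors on the right, grouped by family. Points are means and bars the SD of 3 libraries, and a bar that reaches the left edge has an SD close to or above its mean. Nrp2, Plxnb2, Unc5b and Efnb1 lie furthest to the right.

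Of the 70 IDs, 57 passed the filter on low counts (genes with 0 counts in 2 or more libraries were removed), 33 ligand and 24 receptor IDs. Of the 13 that did not, 12 had at most 5 counts in any library. They were Sema5b, Sema6d, Plxna4, Robo3, Robo4, Epha5, Epha6, Epha10, Ephb1, Unc5d, Unc5cl (a symbol caught only by the open end of the name pattern) and the shorter of the IDs named Efna5. All of the exon length of that ID lies within the exons of the longer Efna5 gene, which was tested and shares 59.9% of its own exon length. By default HTSeq counts a read in bases of both IDs for neither. The 0 counts of the shorter ID therefore do not show that it was not expressed, and the RPKM of the longer may be too low. The remaining gene was Epha7, an Eph receptor, of which the control static libraries held 42, 51 and 44 counts and the control FFSS libraries 51, 39 and 75. The DKO static libraries held 6, 1 and 0 Epha7 counts and the DKO FFSS libraries 0, 2 and 2. Its counts in control libraries were all far above those in DKO libraries. Summed over libraries, Epha7 was 18.6-fold higher in control than in DKO static cells (95% exact conditional interval 8.81 to 47.2, counting error only). With no filter on low counts, it was lower in DKO static cells by 4.15 on the log2 scale (SE 0.51, edgeR adjusted p = 3.85e-07).

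The question of how guidance genes differ between the genotypes was addressed first in static cells. Called here means an edgeR quasi-likelihood adjusted p under 0.05 over all genes and more than a 2-fold change. In DKO static against control static cells 25 of 57 guidance genes tested were called, 12 higher and 13 lower, whereas 15.3% of all 14904 genes tested were called, 7.98% higher and 7.3% lower. Without the fold limit 35 of 57 passed, against 54.2% of all genes. The 25 called comprised 17 of 33 ligands (10 higher, 7 lower) and 8 of 24 receptors (2 higher, 6 lower). Over the 57, the median change on the log2 scale was −0.08, against 0.01 over all genes, so the changes ran in both directions. In RNA from whole cultures, fewer cells that express a gene and less RNA per cell cannot be told apart.

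The secreted class 3 semaphorins that differed were lower in DKO static cells. All 7 were tested and 3 were called, all lower, and 5 passed without the fold limit, again all lower. Sema3a, a repulsive ligand that signals through Nrp1 and class A plexins, had 78.9, 75.4 and 72.0 CPM in control static and 9.68, 9.49 and 10.2 CPM in DKO static libraries. No DKO library came near a control library, and the difference was −2.94 on the log2 scale (SE 0.16, edgeR adjusted p = 2.01e-08). Sema3c had 15.4, 15 and 13.0 CPM in control static and 2.14, 2.69 and 2.11 CPM in DKO static libraries (log2 fold change −2.64 ± 0.26 SE, adjusted p = 2.26e-06 by edgeR). Sema3d had 83.1, 72.0 and 76.3 CPM against 20.02, 24.2 and 22.1 CPM (log2 fold change −1.80 ± 0.26 SE, adjusted p = 0.000216 by edgeR). The groups did not overlap for any of these 3 genes. Such a separation was seen for 47 of the 57 guidance genes tested and for 69% of all genes tested. Sema3b, whose mean RPKM over the 12 libraries was the highest of the class, though close to that of Sema3f, had 71.9, 69.7 and 67.4 CPM in control static and 65.6, 65.1 and 66.5 CPM in DKO static libraries and did not pass the test (log2 fold change −0.08 ± 0.16 SE, adjusted p = 0.698 by edgeR).

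Membrane-bound semaphorins were called in both directions. Sema4a, a class 4 member, was at 2.06, 1.61 and 1.63 CPM in control static and 10.2, 9.33 and 10.3 CPM in DKO static libraries (log2 fold change 2.49 ± 0.15 SE, adjusted p = 9.14e-09 by edgeR). Sema4f, of the same class, went the other way, with 1.9, 1.98 and 0.842 CPM in control static and 0.0550, 0.110 and 0.389 CPM in DKO static libraries (log2 fold change −3.05 ± 0.57 SE, adjusted p = 0.000415 by edgeR), although the DKO values rest on only 1, 2 and 7 counts. The other 4 class 4 semaphorins were not called.

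Sema5a, a transmembrane semaphorin with thrombospondin repeats, had 60.9, 52.6 and 65.7 CPM in control static and 257, 302 and 265 CPM in DKO static libraries (log2 fold change 2.20 ± 0.39 SE, adjusted p = 0.00121 by edgeR). Sema6a, a class 6 ligand of class A plexins, had 3.01, 2.5 and 2.47 CPM against 0.220, 0.439 and 0.944 CPM (log2 fold change −2.31 ± 0.44 SE, adjusted p = 0.000542 by edgeR). Sema7a, which is tethered to the membrane by a lipid anchor and binds Plxnc1 and integrins, had 10.4, 12.4 and 14.0 CPM in control static and 51.1, 58.2 and 56.3 CPM in DKO static libraries (log2 fold change 2.17 ± 0.16 SE, adjusted p = 2.91e-07 by edgeR). In each of these 3 genes the groups were apart, as in 69% of all genes tested. Sema5a and Sema7a were higher and Sema6a lower in DKO cells.

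Of the ephrins, 3 of 5 tested members of class A and 1 of 3 of class B were called. The 3 lipid-anchored A ephrins called were all higher in DKO static cells. Efna3 had 6.29, 7.14 and 7.37 CPM in control static and 44.1, 47.3 and 43.8 CPM in DKO static libraries, the largest rise among guidance genes tested on the log2 scale (2.70, SE 0.20, edgeR adjusted p = 4.27e-07). Efna4 had 1.64, 2.34 and 1.9 CPM against 8.08, 7.90 and 8.50 CPM (log2 fold change 2.05 ± 0.19 SE, adjusted p = 4.89e-07 by edgeR). Efna1 had 12.9, 13.1 and 12.5 CPM against 32.1, 29.5 and 30.2 CPM (log2 fold change 1.25 ± 0.13 SE, adjusted p = 1.69e-06 by edgeR). Each of these 3 ephrins stood higher in every DKO static library than in any control static library. Of all genes tested, 69% showed such a separation in either direction. Efna3 shares 14.1% and Efna4 10.5% of its exon length with a lincRNA on the opposite strand, and the counting did not use strand. Of the transmembrane B ephrins, Efnb2, known from arteries as the partner of Ephb4, had 54.6, 53.5 and 52.7 CPM in control static and 13.6, 9.55 and 11.6 CPM in DKO static libraries (log2 fold change −2.21 ± 0.23 SE, adjusted p = 1.09e-05 by edgeR). Efnb1 and Efnb3 were not called.

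Of the Slits, Slit3 had 74.8, 65.7 and 66.8 CPM in control static and 241, 238 and 243 CPM in DKO static libraries (log2 fold change 1.80 ± 0.34 SE, adjusted p = 0.00151 by edgeR). Slit2 had 52.0, 53.0 and 50.9 CPM against 45.5, 54.8 and 49.5 CPM, and its groups overlapped. Slit1 was called higher, but on 2 counts in all control static and 9 counts in all DKO static libraries. The ratio of these counts was 4.72 with a 95% exact conditional interval of 0.978 to 44.9, and the call was lost in 8 of 20 alternatives, with adjusted p-values from 0.0146 to 0.204 over them.

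Among the netrins, Ntn5 had 15.2, 15.6 and 14.7 CPM in control static and 3.02, 3.02 and 2.89 CPM in DKO static libraries (log2 fold change −2.35 ± 0.32 SE, adjusted p = 6.19e-05 by edgeR), and shares 25.9% of its exon length with Sec1 on the opposite strand. Ntn3 and Ntn4 were called higher, with log2 fold changes of 1.31 and 1.36. Ntn3 and Ntn4, like Epha7, Slit2, Plxna3, Sema4d, Sema3e, Sema6b, Ephb3, Ephb4 and Unc5c elsewhere in the text, and Efnb3 and Epha3 for the genotypes under FFSS, fall outside the rule for the comparison in which they are named and were chosen after their values were seen. Ntn1, the netrin with the highest mean RPKM, had 81.4, 90.8 and 78.4 CPM in control static and 101, 107 and 100 CPM in DKO static libraries, a difference under 2-fold (log2 fold change 0.30 ± 0.10 SE, adjusted p = 0.0209 by edgeR).

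The receptors called were mostly lower in DKO static cells, whereas without the fold limit 5 passed as higher and 8 as lower. Plxnc1, the receptor of Sema7a, showed the largest fall of all guidance genes tested. It had 6.03, 4.69 and 5.95 CPM in control static and 0.275, 0.384 and 0.333 CPM in DKO static libraries (log2 fold change −4.04 ± 0.29 SE, adjusted p = 4.23e-08 by edgeR), so that Sema7a was higher and Plxnc1 lower in the same libraries. Plxna2, a class A plexin, had 117, 103 and 105 CPM against 18.5, 23.2 and 18.7 CPM (log2 fold change −2.43 ± 0.14 SE, adjusted p = 3.24e-08 by edgeR). Nrp1, which pairs with class A plexins to bind Sema3a, had 130, 120 and 125 CPM against 43.9, 44.6 and 47.7 CPM (log2 fold change −1.46 ± 0.11 SE, adjusted p = 1.21e-07 by edgeR). The other class A plexins tested were not called. Plxna1 was at −0.04 on the log2 scale, and Plxna3 was higher by less than 2-fold, at 45.4, 41.5 and 40.5 CPM against 61.0, 62.8 and 64.2 CPM (log2 fold change 0.56 ± 0.10 SE, adjusted p = 0.000387 by edgeR).

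Plxnb1, the receptor of Sema4d, was the receptor that rose most, with 37.4, 37.9 and 36.6 CPM in control static and 118, 134 and 123.04 CPM in DKO static libraries (log2 fold change 1.74 ± 0.13 SE, adjusted p = 2.20e-07 by edgeR). Its ligand Sema4d had 35.4, 37.5 and 36.7 CPM against 26.7, 27.2 and 29.9 CPM and did not pass the test (log2 fold change −0.39 ± 0.25 SE, adjusted p = 0.222 by edgeR). Plxnb2, Plxna1 and Plxnd1, the plexins with the highest mean RPKM over the 12 libraries, were not called in static cells, with log2 fold changes of −0.12, −0.04 and 0.28.

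Epha3, a receptor of A ephrins, had 190, 173 and 169 CPM in control static and 54.8, 58.4 and 51.4 CPM in DKO static libraries (log2 fold change −1.69 ± 0.15 SE, adjusted p = 1.47e-06 by edgeR). Its decrease stood beside the rise of Efna1, Efna3 and Efna4 in the same cells. Ephb3 was called lower, at −1.32 on the log2 scale (SE 0.10, edgeR adjusted p = 1.35e-07). Ephb4 had 62.2, 68.1 and 63.1 CPM against 117, 124 and 115 CPM, just under the fold limit (log2 fold change 0.88 ± 0.06 SE, adjusted p = 1.61e-08 by edgeR), while its partner Efnb2 was lower. Epha2, the Eph receptor with the highest mean RPKM over the 12 libraries, did not pass the test. It was not the highest in every group, since in DKO static cells Ephb4 had 25.6 ± 1.00 RPKM and Epha2 22.0 ± 1.05 RPKM.

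Among the Unc5 receptors, Unc5a was called lower, with the control static libraries at 13, 11 and 9 counts and the DKO static ones at 2, 3 and 4 (log2 fold change −1.76 ± 0.58 SE, adjusted p = 0.0184 by edgeR). This call was lost in 3 of 22 alternatives. Unc5c was called higher (log2 fold change 1.43 ± 0.25 SE, adjusted p = 0.000268 by edgeR), a call lost in 1 of 22 alternatives, with the share of reads outside genes as a covariate (log2 fold change 0.99). Unc5b, the abundant member, was lower by less than 2-fold, at 426, 410 and 415 CPM against 259, 251 and 278 CPM (log2 fold change −0.67 ± 0.13 SE, adjusted p = 0.000917 by edgeR). Neither of the Robos tested was called in static cells, although with that covariate Robo1 was called higher (log2 fold change 1.11 against 0.12, edgeR adjusted p = 0.00631 against 0.772). Robo2 had 130, 130 and 126 CPM in control static and 61.8, 71.3 and 62.2 CPM in DKO static libraries. It lay just under the fold limit (log2 fold change −0.98) and passed without it.

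**Figure D2:**
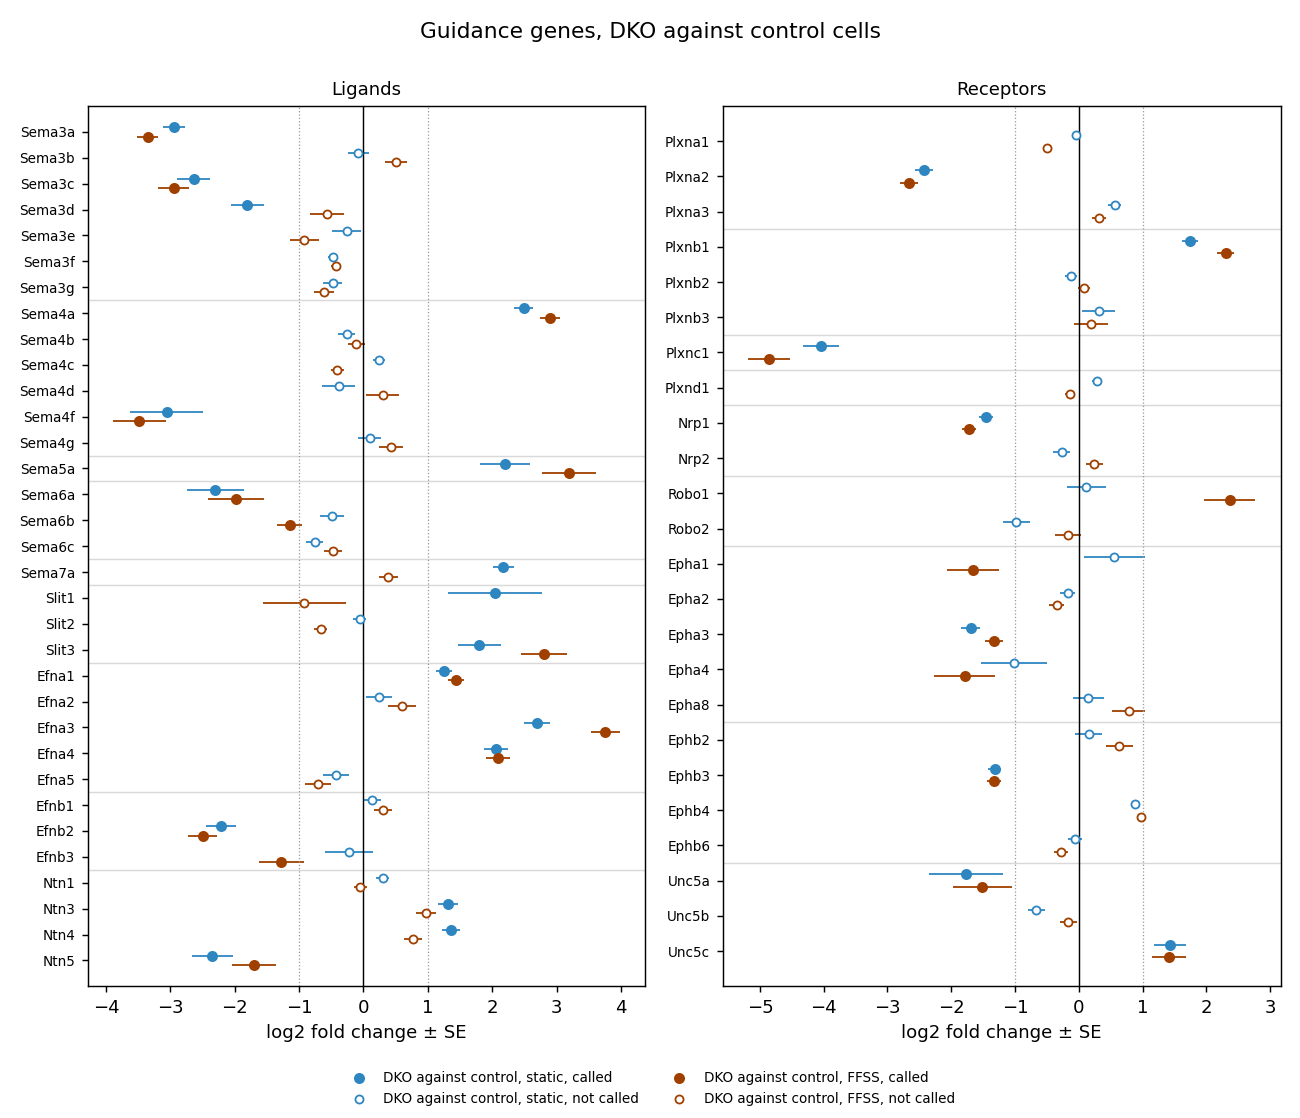
Log2 fold change between DKO and control cells for each tested guidance gene, static in blue and under FFSS in brown, with bars of 1 SE and dotted lines at the 2-fold limit. Filled points were called. Sema3a, Sema3c, Plxna2, Plxnc1 and Efnb2 lie left of the limit and Sema4a, Sema5a, Slit3, Efna3, Efna4 and Plxnb1 right of it in both conditions, whereas Sema7a was called in static cells and Robo1 under FFSS.

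The genotypes were compared again under FFSS. In DKO FFSS against control FFSS cells 25 of 57 were called, 9 higher and 16 lower, whereas 17.2% of all genes tested were called, 8.25% higher and 8.96% lower. Without the fold limit 44 of 57 passed, against 56.6% of all genes. The 17.2% and 15.3% come from comparisons that share no library. Over the 57, the median change on the log2 scale was −0.17, against −0.05 over all genes. Among the ligands, log2 fold changes under FFSS were −3.35 for Sema3a, −2.95 for Sema3c, 2.90 for Sema4a, −3.48 for Sema4f, 3.19 for Sema5a, −1.98 for Sema6a, 2.81 for Slit3, 3.76 for Efna3, 2.09 for Efna4, 1.43 for Efna1, −2.50 for Efnb2 and −1.70 for Ntn5, each called with the sign seen in static cells. Among the receptors they were −4.85 for Plxnc1, −2.66 for Plxna2, 2.3 for Plxnb1, −1.73 for Nrp1, −1.33 for Epha3, −1.33 for Ephb3, 1.41 for Unc5c and −1.51 for Unc5a, again called with the same sign. The call of Unc5a under FFSS was lost in 3 of 22 alternatives.

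Other members were called in 1 of these comparisons. Sema3d, with 59.3, 26.95 and 28.1 CPM in control FFSS and 25.9, 25.5 and 25.5 CPM in DKO FFSS libraries, was not called under FFSS (log2 fold change −0.57 ± 0.26 SE, adjusted p = 0.0895 by edgeR). Sema7a was not called either, its control FFSS level having come close to that of DKO FFSS libraries (log2 fold change 0.39 ± 0.15 SE, adjusted p = 0.0401 by edgeR). Robo1, the Slit receptor of low abundance here, was called higher in DKO FFSS cells by 2.36 on the log2 scale (SE 0.40, edgeR adjusted p = 0.000195). No library of either group overlapped, as for 58.4% of all genes tested. Epha4, an Eph receptor that binds ephrins of classes A and B, had 1.49, 7.91 and 5.94 CPM in control FFSS and 1.27, 1.43 and 1.73 CPM in DKO FFSS libraries (log2 fold change −1.79 ± 0.48 SE, adjusted p = 0.00772 by edgeR), and the groups overlapped because of control FFSS replicate 1. In static cells Epha4 was at −1.01 (SE 0.52, edgeR adjusted p = 0.124), and was called lower there with the covariate (−2.02), with only the 6 libraries compared (−1.01) and without control FFSS replicate 1 (−1.01). Epha1 (−1.66), Efnb3 (−1.28) and Sema6b (−1.15 on the log2 scale) were called lower.

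Whether FFSS changed guidance genes was asked first in control cells. In control FFSS against control static cells 9 of 57 guidance genes tested were called, 4 higher and 5 lower, whereas 5.93% of all genes tested were called, 3.96% higher and 1.97% lower. Without the fold limit 30 of 57 passed, 11 higher and 19 lower, whereas 35.8% of all genes passed. The median log2 fold change was −0.10, against 0.01 over all genes. The ligands held 7 of the 9 calls. All 3 control FFSS libraries lay beyond all 3 control static libraries for 25 of the 57 tested, whereas 41.3% of all genes tested showed such a separation. Of the 9 called, 8 were among them, the exception being Efnb3.

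Sema7a responded most among the ligands. It had 10.4, 12.4 and 14.0 CPM in control static and 37.1, 61.6 and 49.6 CPM in control FFSS libraries, so that even replicate 1 stood well above the static libraries. The rise was 2.01 on the log2 scale (SE 0.16, edgeR adjusted p = 8.04e-06). Sema4f had 1.9, 1.98 and 0.842 CPM in control static and 3.49, 6.59 and 5.30 CPM in control FFSS libraries (log2 fold change 1.70 ± 0.33 SE, adjusted p = 0.00193 by edgeR). Efnb3, a transmembrane ephrin, had 3.01, 3.80 and 2.90 CPM against 3.49, 8.64 and 9.11 CPM (log2 fold change 1.13 ± 0.34 SE, adjusted p = 0.0229 by edgeR). Its replicate 1 lay inside the static range while replicates 2 and 3 lay above it.

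The ligands that fell under FFSS had the same pattern among replicates. Sema5a had 60.9, 52.6 and 65.7 CPM in control static and 47.6, 13.8 and 15.3 CPM in control FFSS libraries (log2 fold change −1.23 ± 0.40 SE, adjusted p = 0.0430 by edgeR). Slit3 had 74.8, 65.7 and 66.8 CPM against 56.8, 18.7 and 22.1 CPM (log2 fold change −1.09 ± 0.34 SE, adjusted p = 0.0369 by edgeR). In each, replicate 1 was slightly below and replicates 2 and 3 far below the static libraries. Efna3 had 6.29, 7.14 and 7.37 CPM against 5.50, 2.15 and 2.57 CPM (log2 fold change −1.03 ± 0.25 SE, adjusted p = 0.00830 by edgeR). Sema3d had 83.1, 72.0 and 76.3 CPM against 59.3, 26.95 and 28.1 CPM (log2 fold change −1.02 ± 0.25 SE, adjusted p = 0.0123 by edgeR).

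Of the receptors, Epha1 was called higher and Robo1 lower. Epha1 had 0.476, 0.365 and 0.579 CPM in control static and 0.668, 2.00 and 2.38 CPM in control FFSS libraries (log2 fold change 1.82 ± 0.41 SE, adjusted p = 0.00479 by edgeR). Zyx, on the opposite strand and with many more counts, overlaps 4.89% of the Epha1 exon length. Robo1 had 2.75, 3.02 and 3.42 CPM in control static and 1.13, 0.439 and 0.0990 CPM in control FFSS libraries (log2 fold change −2.46 ± 0.40 SE, adjusted p = 0.000591 by edgeR), which correspond to 52, 58 and 65 counts against 22, 9 and 2. Its homologue Robo2, the more abundant of the pair per exon length, had 130, 130 and 126 CPM against 109, 56.2 and 59.1 CPM and passed without the fold limit (log2 fold change −0.78 ± 0.21 SE, adjusted p = 0.0171 by edgeR). Plxna1, with 222, 201 and 202 CPM against 293, 295 and 321 CPM, was higher by less than 2-fold (log2 fold change 0.54 ± 0.06 SE, adjusted p = 5.94e-05 by edgeR), and its 3 FFSS libraries lay close together.

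**Figure D3:**
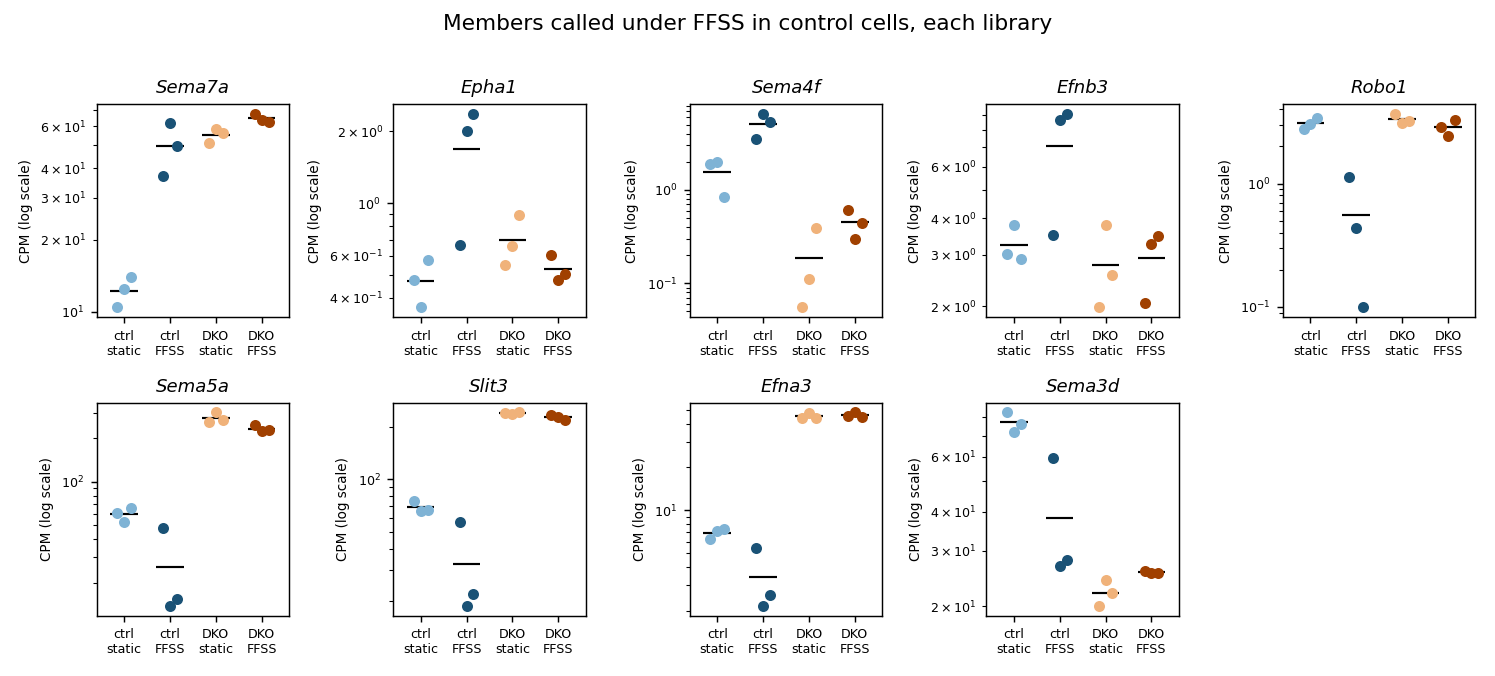
CPM (log scale) of the 9 guidance genes called under FFSS in control cells, 1 point for each library in order of replicate 1 to 3 and a line at the group mean. Control FFSS replicate 1 lies nearer to the static libraries than replicates 2 and 3 for each of the 9, and for Robo1, Sema5a, Slit3 and Efna3 the FFSS libraries of DKO cells stay near the static DKO libraries.

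The share of reads outside annotated genes rose in the same control FFSS libraries. It was higher in each FFSS library than in any static library of the same genotype, and higher in DKO static than in control static libraries. A fit with this share as a covariate can therefore also take out part of an effect of FFSS or genotype. With this share as a covariate, Sema7a kept its call (log2 fold change 1.58, edgeR adjusted p = 0.000116) and was the only guidance gene called. Robo1 (−1.13, edgeR adjusted p = 0.0656) and Sema4f (1.09, edgeR adjusted p = 0.0670) then did not pass, and the log2 fold changes of Slit3, Sema5a, Efna3 and Sema3d were −0.07, −0.06, −0.18 and −0.20. Epha1 was at 0.25 (edgeR adjusted p = 0.803), and Efnb3 turned to −0.13 (edgeR adjusted p = 0.838). The share of all genes called was then 1.33%. Without control FFSS replicate 1, 16 members were called, beside 11.3% of all genes. Without replicate 2 or replicate 3, 4 were called (Sema7a, Sema4f, Epha1 and Robo1), beside 3.73% and 3.3% of all genes. Of the 9, Slit3 and Sema5a were lost in most alternatives, 15 and 14 of 22, whereas Sema7a was called in all of them. Markers moved in the same libraries, not all one way. Sp7, an osteoblast transcription factor, had 547, 514 and 552 CPM in control static and 322, 97.7 and 116 CPM in control FFSS libraries. Of the same list, Spp1, which encodes osteopontin, went from 764, 834 and 834 CPM to 1256, 967 and 885 CPM, and Bglap, which encodes osteocalcin, from 16.9, 13.2 and 17.4 CPM to 23.0, 6.69 and 8.12 CPM. In control FFSS libraries the osteocyte markers summed to between 110 and 291 CPM and the chondrocyte markers to between 53.8 and 96.8 CPM, and their part in the FFSS results was not tested.

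**Figure D4:**
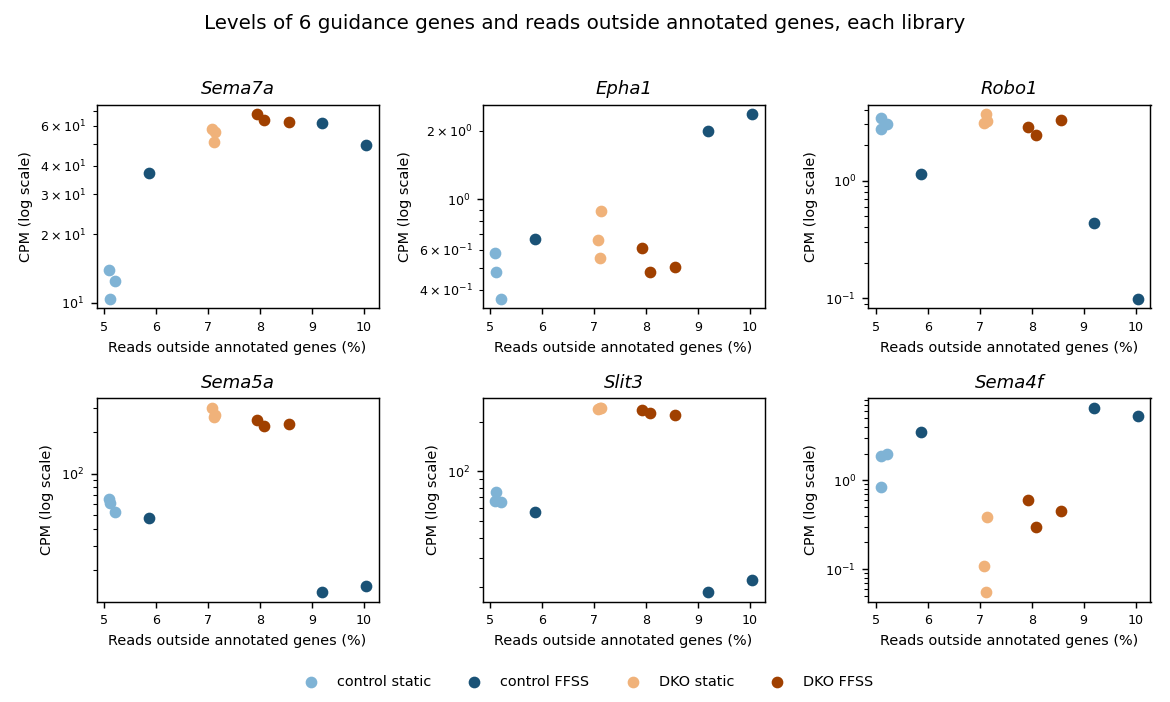
CPM (log scale) of 6 guidance genes in each library against its share of reads outside annotated genes (those given to no feature), coloured by group. Control FFSS replicate 1, at 5.87%, lies beside the control static libraries on the horizontal axis and replicates 2 and 3, at 9.19% and 10.04%, lie to the right, where Slit3 and Sema5a are lowest and Epha1 highest among control libraries.

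In DKO cells FFSS moved no guidance gene past the threshold. Of 57 tested 0 were called by edgeR, DESeq2 or limma-voom, and 6 had an unadjusted edgeR p under 0.05, beside 13.5% of all genes, whereas 0.0872% of all genes were called, 0.0134% higher and 0.0738% lower. Without the fold limit 0 of 57 passed, against 0.872% of all genes. Log2 fold changes lay between −1.06 (Slit1, which rests on at most 4 counts) and 1.27 (Sema4f, on at most 11). Sema7a had 51.1, 58.2 and 56.3 CPM in DKO static and 67.8, 63.9 and 62.4 CPM in DKO FFSS libraries. The FFSS libraries were all above the static ones, but the difference was small (log2 fold change 0.23 ± 0.15 SE, adjusted p = 0.574 by edgeR). Such a separation, in either direction, was seen for 29.9% of all genes tested. Slit3 had 241, 238 and 243 CPM against 234, 227 and 220 CPM (log2 fold change −0.08 ± 0.32 SE, adjusted p = 0.952 by edgeR), and Sema5a had 257, 302 and 265 CPM against 246, 223 and 229 CPM (log2 fold change −0.24 ± 0.37 SE, adjusted p = 0.863 by edgeR). Robo1 had 3.68, 3.07 and 3.22 CPM against 2.88, 2.44 and 3.24 CPM, and these groups overlapped.

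**Figure D5:**
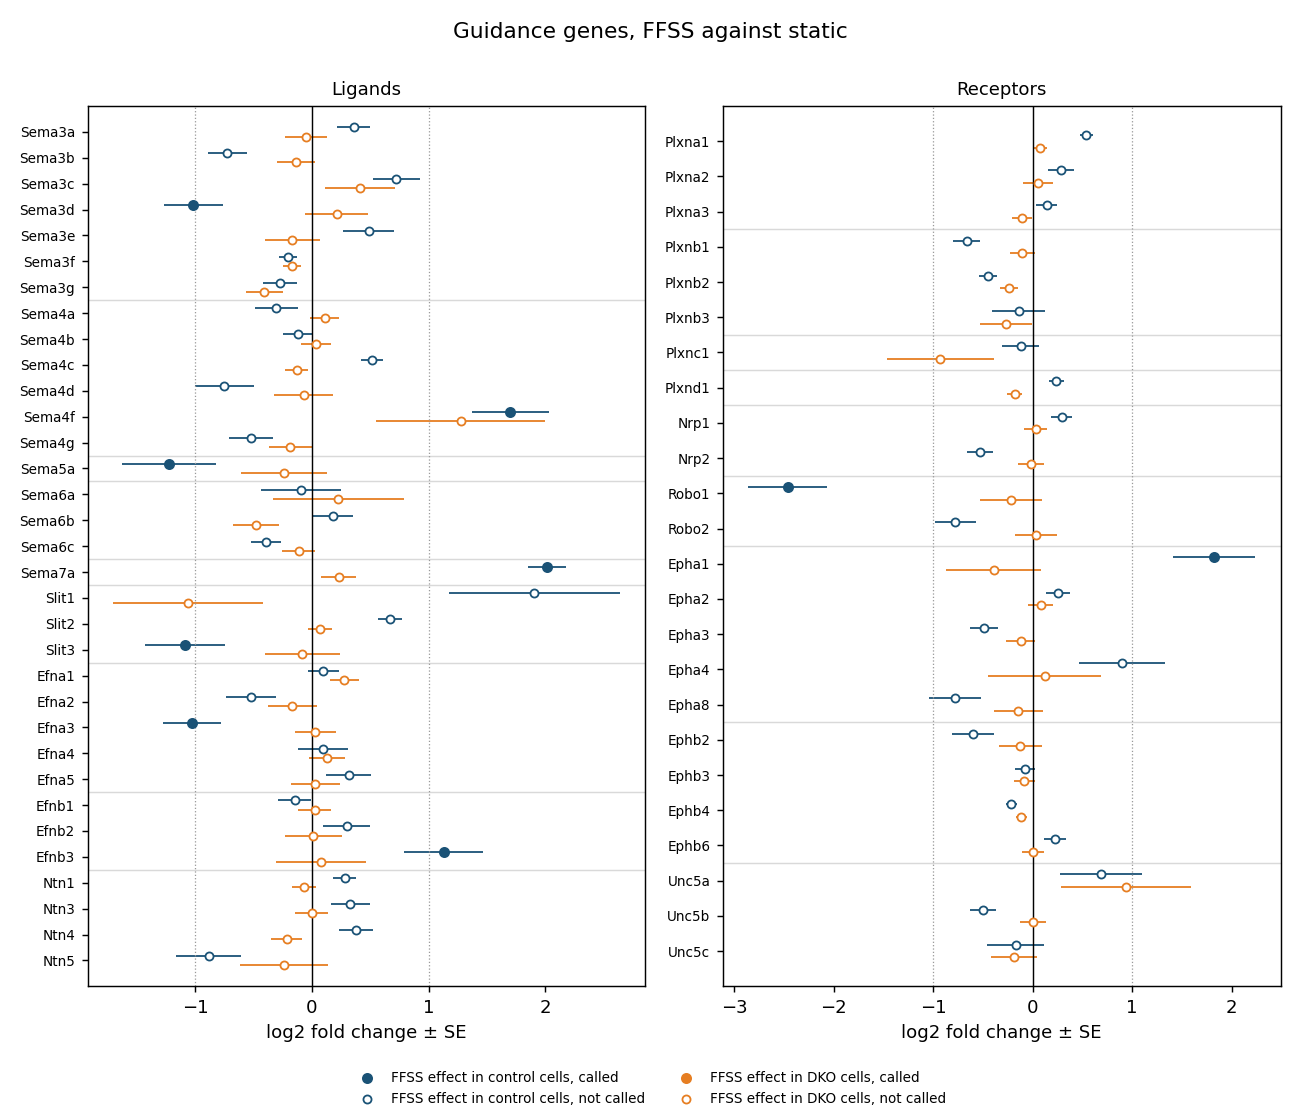
Log2 fold change between FFSS and static cells for each tested guidance gene, control cells in dark blue and DKO cells in orange, with bars of 1 SE and dotted lines at the 2-fold limit. Filled points were called. The 9 filled points all belong to control cells, led by Sema7a at 2.01 and Robo1 at −2.46.

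The difference between the FFSS effects of the genotypes was tested as an interaction, the effect in DKO cells minus that in control cells. Of 57 tested 2 were called, whereas 0.651% of all genes were called, and 6 passed without the fold limit, against 3.97% of all genes. For Sema7a the effect in DKO cells was smaller by 1.78 on the log2 scale (interaction −1.78, SE 0.22, edgeR adjusted p = 0.00161), with 2.01 in control and 0.23 in DKO cells. For Robo1 the interaction was 2.24 (SE 0.51, edgeR adjusted p = 0.0300), with −2.46 in control and −0.22 in DKO cells. The call of Sema7a held in every alternative. That of Robo1 was lost in 10 of 21 alternatives, all of which left out 1 library, with adjusted p-values from 3.39e-07 to 0.0892 over all of them and values from 1.46 to 3.25. For Slit3 (1.01, SE 0.47, edgeR adjusted p = 0.236), Sema5a (0.99, SE 0.55, edgeR adjusted p = 0.306), Efna3 (1.06, SE 0.30, edgeR adjusted p = 0.0771) and Epha1 (−2.22, SE 0.64, edgeR adjusted p = 0.0711) the FFSS effects were not shown to differ between genotypes. Without control FFSS replicate 1 the interaction was called for 14 members, these 4 among them (1.68, 1.80, 1.58 and −2.59 on the log2 scale), beside 7.6% of all genes.

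Sema7a lies on mm9 chromosome 9, 57787920 to 57810671 (plus strand, ENSMUSG00000038264), and Robo1 on chromosome 16, 72663394 to 73046340 (plus strand, ENSMUSG00000022883). The 250 bases upstream of the start in RefSeq (GRCm38.p6) are printed for these genes, since they carried the interaction, and for Plxnb1 and Plxna2, a plexin that was higher and a plexin that was lower in DKO cells. Each stretch was found once in the mm9 genome by exact match, and the mm9 positions are given. Capitals mark the GC box letters GGGCGG on either strand. They run 5′ to 3′ on the strand of the gene, which is the plus strand in all 4.
Sema7a (chr9:57787669-57787918): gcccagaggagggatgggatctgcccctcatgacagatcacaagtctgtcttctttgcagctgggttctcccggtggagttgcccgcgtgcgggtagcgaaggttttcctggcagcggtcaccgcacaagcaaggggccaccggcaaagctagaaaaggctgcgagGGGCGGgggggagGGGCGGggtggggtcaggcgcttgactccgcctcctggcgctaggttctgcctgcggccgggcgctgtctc
Robo1 (chr16:72663144-72663393): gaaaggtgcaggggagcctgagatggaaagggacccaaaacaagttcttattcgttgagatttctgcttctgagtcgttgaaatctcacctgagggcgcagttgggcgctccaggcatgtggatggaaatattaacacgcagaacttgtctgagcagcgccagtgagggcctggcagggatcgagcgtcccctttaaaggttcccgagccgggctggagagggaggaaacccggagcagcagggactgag
Plxnb1 (chr9:108997700-108997949): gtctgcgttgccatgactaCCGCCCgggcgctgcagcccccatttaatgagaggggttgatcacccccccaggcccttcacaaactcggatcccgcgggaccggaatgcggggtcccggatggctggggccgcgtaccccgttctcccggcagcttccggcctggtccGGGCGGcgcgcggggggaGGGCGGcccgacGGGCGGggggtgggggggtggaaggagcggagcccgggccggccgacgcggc
Plxna2 (chr1:196445773-196446022): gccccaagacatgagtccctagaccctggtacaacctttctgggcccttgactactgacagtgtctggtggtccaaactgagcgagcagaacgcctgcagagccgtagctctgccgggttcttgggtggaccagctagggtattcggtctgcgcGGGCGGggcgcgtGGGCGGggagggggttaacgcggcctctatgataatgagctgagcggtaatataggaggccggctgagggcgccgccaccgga
The Sema7a, Plxnb1 and Plxna2 stretches held 2, 4 and 2 GC boxes and that of Robo1 held 0. Over 60 guidance symbols with a RefSeq entry (76 starts), 71.1% of the stretches held the letters GGGCGG, against 32.7% of all 32851 starts of the same length. They were in 81.2% of the 16 starts of members higher and 58.3% of the 12 starts of members lower in DKO static cells. Class IIa histone deacetylases are known to bind MEF2 factors. The MEF2 letters, CTA and TAG with any 4 bases between them, read on both strands, were in 1.32% of the guidance stretches and 3.2% of all, and in 0 of the 16 and 0 of the 12 starts of members called higher and lower in DKO static cells. The AP-1 letters TGANTCA were in 3.95% against 6.75%, and the letters ACGTG, the core of the hypoxia response element, in 15.8% against 16.6%. None of the 4 printed stretches held MEF2, AP-1 or ACGTG letters, which says only that these letters are not in this window.

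Some of the genes that differed between the genotypes lie together. Efna1 (mm9 chromosome 3, 89075655 to 89085064), Efna3 (89117821 to 89126887) and Efna4 (89137312 to 89141950) are neighbours on the minus strand, and Sema4a lies within 1 Mb of them (88239881 to 88265104). All 4 were called higher in DKO cells in both conditions. Over the 902 kb from Sema4a to Efna4, 31 other genes were tested, of which 7 were called higher and 1 lower in static cells, where 7.98% of all genes were called higher, and 10 higher and 1 lower under FFSS, where 8.25% were. Their median log2 fold change was 0.61. One of those called, Gm15998, is the lincRNA that overlaps Efna3. Sema3d, Sema3a and Sema3e lie in 1874 kb of chromosome 5 with 1 other gene tested there, and Sema3d and Sema3a were called lower in static cells while Sema3e was not called (log2 fold change −0.26 ± 0.23 SE, adjusted p = 0.362 by edgeR). Elsewhere, Robo1 was called higher and Epha1 lower under FFSS without their neighbours Robo2 and Ephb6. The neighbours Epha8 and Ephb2, Sema3b and Sema3f, and Plxna3 and Plxnb3 were not called between the genotypes in either condition.

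Partners and signalling proteins of the guidance receptors that do not bear these family names were described from a list of 72 symbols, of which 63 IDs were tested. Under FFSS in control cells 4 of 63 were called, 2 higher and 2 lower, a share of 6.35% against 5.93% of all genes. Ntng2, a membrane-anchored netrin relative, had 9.99, 10.4 and 11.7 CPM in control static and 6.37, 1.17 and 1.98 CPM in control FFSS libraries (log2 fold change −1.76 ± 0.41 SE, adjusted p = 0.00903 by edgeR). Ngef, which acts downstream of Epha4, had 16.7, 13.6 and 18.9 CPM against 11.9, 2.59 and 1.73 CPM (log2 fold change −1.61 ± 0.53 SE, adjusted p = 0.0424 by edgeR). Nrcam, an adhesion molecule that associates with neuropilins, was called higher from between 0.158 and 0.313 CPM to between 0.462 and 1.07 CPM (log2 fold change 1.52 ± 0.42 SE, adjusted p = 0.0140 by edgeR). In DKO cells 0 of 63 were called by edgeR, with or without the fold limit, and 12 had an unadjusted p under 0.05, beside 13.5% of all genes. Flrt2, a transmembrane ligand of Unc5 receptors, was the only list member called in the interaction, with control cells at 45.9, 46.6 and 46.0 CPM static and 87.2, 79.5 and 89.7 CPM under FFSS, and DKO cells at 54.8, 55.5 and 51.2 CPM static and 45.7, 47.3 and 50.2 CPM under FFSS. The control FFSS libraries stood far above all others, and the DKO FFSS libraries lay slightly below the DKO static ones (interaction −1.06, SE 0.09, edgeR adjusted p = 0.000204).

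Between the genotypes, 10 of the 63 were called in static cells (4 higher, 6 lower) and 18 under FFSS (10 higher, 8 lower), shares of 15.9% and 28.6%, against 15.3% and 17.2% of all genes. Flrt3, the relative of Flrt2, showed the largest difference among those tested. It had 18.6, 18.6 and 17.95 CPM in control static and 0.220, 0.165 and 0.167 CPM in DKO static libraries (log2 fold change −6.59 ± 0.38 SE, adjusted p = 1.83e-08 by edgeR), and −6.71 (SE 0.39, edgeR adjusted p = 1.89e-08) under FFSS. The DKO values are near the level of 3 counts. Chl1, an adhesion molecule of the L1 family that the filter removed, had 13.5, 9.90 and 10.4 CPM in control static and 0 counts in all 3 DKO static libraries, and is named after its values were seen, with no test. Vav3, which acts below Eph receptors, was lower at −3.89 in static cells and −3.38 under FFSS on the log2 scale, from control levels of at most 2.25 CPM. L1cam, an adhesion molecule that pairs with Nrp1, was lower in DKO FFSS cells, at −2.93 on the log2 scale (SE 0.46, edgeR adjusted p = 9.05e-05). Neo1, a receptor of netrins and repulsive guidance molecules, was higher in both conditions, at 1.17 and 1.26 on the log2 scale, and is named outside the rule after its values were seen. Of the list's kinases and adaptors, 1 of 13 was called in each condition.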

How the data were processed

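RNA-seq reads of 12 libraries (4 groups of 3) had been aligned to mm9 with STAR and counted with HTSeq, per the submitters' processing notes, which also name edgeR. The deposited values are raw counts per Ensembl gene ID, and the names of the deposited files give the counting as not stranded. Rows that name no gene were left out of library totals. The row for reads without a feature held 5.10% to 10.04% of the reads assigned, ambiguous or without a feature. Members and lists were chosen with earlier results of these data known. In R 4.3.3, genes with 0 counts in 2 or more libraries were removed, and the counts of 14904 genes were fitted with edgeR 4.0.16 (TMM, robust quasi-likelihood, Benjamini-Hochberg over all genes). Log2 fold changes are those of the edgeR fit, or of the alternative named. CPM and RPKM were computed from the counts, RPKM by the union exon length in the mm9 annotation. Named were called members, or the 20 with the largest absolute log2 fold change where more were called, the member of highest RPKM in each family, and the 3 most changed called genes of the pathway list. 1 of the genes this rule picks is not reported here. Alternatives were DESeq2 1.42.0, limma-voom (limma 3.58.1), other scalings, filters, samples and thresholds, a covariate, a replicate block, and each library left out. Intervals cover counting error only.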

Additional observations from a re-analysis of the deposited data

Results flagged for a closer look

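The FFSS effect differed between the genotypes in 6 guidance genes by the edgeR interaction test (effect in DKO cells minus effect in control cells, adjusted p under 0.05, no fold limit), where 3.97% of all genes passed. For Sema7a the interaction was −1.78 on the log2 scale (SE 0.22, edgeR adjusted p = 0.00161) and for Robo1 it was 2.24 (SE 0.51, edgeR adjusted p = 0.0300), as described above. Sema4c, a class 4 semaphorin, had 17.6, 18.3 and 18.2 CPM static and 28.8, 21.4 and 27.1 CPM under FFSS in control cells, and 21.0, 20.7 and 22.3 CPM static and 19.4, 18.9 and 20.1 CPM under FFSS in DKO cells. All of its control FFSS libraries but replicate 2 lay above every other library (interaction −0.65, SE 0.14, edgeR adjusted p = 0.0221).

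Slit2 had 67.5, 89.0 and 91.4 CPM in control FFSS libraries and between 45.5 and 54.8 CPM in the other libraries, so that control FFSS stood apart (interaction −0.60, SE 0.14, edgeR adjusted p = 0.0351). Plxna1 had 293, 295 and 321 CPM in control FFSS libraries, above the 187 to 222 CPM of the other libraries (interaction −0.47, SE 0.09, edgeR adjusted p = 0.0145). Plxnd1, the receptor of Sema3e, had 170, 182 and 217 CPM in control FFSS and 180, 173 and 164 CPM in DKO FFSS libraries, which overlapped (interaction −0.42, SE 0.11, edgeR adjusted p = 0.0452). In control FFSS cells these genes were higher than in static cells by 0.51 (Sema4c), 0.67 (Slit2), 0.54 (Plxna1) and 0.24 (Plxnd1) on the log2 scale, all under 2-fold.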

How the results depend on the processing

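Of 61 calls of a guidance gene in a comparison, 48 held in every alternative and 13 were lost in 1 or more. The counts called between the genotypes in static cells stayed within 1.5 times the count reported. The share of reads outside genes was itself higher in DKO static than in control static libraries. With it as a covariate, some static genotype log2 fold changes moved while their calls held. They were 3.05 for Sema5a, 2.52 for Slit3, −1.68 for Ntn5 and −1.64 for Sema6a, against 2.20, 1.80, −2.35 and −2.31. Under FFSS in control cells 9 members were called (5.93% of all genes), against 4 with only the 6 libraries compared (3.04% of all genes), 30 with no fold limit (35.8%), 1 with the share of reads outside genes as a covariate (1.33%), and 4 to 16 when each library was left out (3.3% to 11.3%). The highest was 16 without control FFSS replicate 1 and the lowest 4 without replicate 2 or replicate 3 of that group, and 5 were called without control static replicate 1 or replicate 3. Efnb3 under FFSS in control cells turned to −0.13 (edgeR adjusted p = 0.838) with the covariate, and the cause was not tested. The interaction was called for 2 members (0.651% of all genes), against 4 with DESeq2 (1.17%), 4 with limma-voom (1.13%), 6 with no fold limit (3.97%), and 1 to 14 when each library was left out (0.28% to 7.6%, the 14 and 7.6% without control FFSS replicate 1). Between the genotypes under FFSS, 44 passed with no fold limit (56.6% of all genes). With library totals alone the median log2 fold change of all genes was 0.13 for FFSS in control cells, −0.25 for DKO against control under FFSS and −0.13 for the interaction. Libraries sharing a replicate number did not deviate together (mean correlation 0.00226 over 18 pairs), and with the replicate block 9, 0, 2, 25 and 25 members were called for FFSS in control and in DKO cells, their difference, and the genotypes in static and FFSS cells. Genes near 3 counts per library, such as Slit1, are limited by depth.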
